A study of Mus musculus with 6 samples.

Results

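The genes described here are the insulin-like growth factor (IGF) binding protein genes Igfbp2 to Igfbp7, the IGF receptor gene Igf1r and the ligand gene Igf1. They were taken by gene symbol and not by a cutoff on their values. The family itself was chosen with earlier results of these data known. Each of the 8 symbols matched 1 row among the 32285 gene rows of the count table. Igfbp2 to Igfbp7 and Igf1r had enough reads to be tested, and Igf1 did not, which left 7 of the 15104 genes tested. The cells were germline stem (GS) cells, cultured mouse spermatogonia established from testes of DBA/2 mice aged 2 to 3 days. All carried the transgene Tg14(act-EGFP-OsbY01), in which an actin promoter drives EGFP, and all had been frozen for 6 months. Space GS cells were stored frozen on the International Space Station and Ground GS cells were stored frozen on Earth. Each group had 3 libraries, prepared from RNA of thawed cells. Per the study's methods the cells grow on mouse embryonic fibroblast feeders with GDNF and FGF2, and RNA was taken the day after thawing, before any passage. The groups follow the library titles. The treatment label of all 6 libraries names the other group, so every Space-to-Ground difference would change sign if that label were right.

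IGF1 and IGF2 are secreted peptides that act through IGF1R, a receptor tyrosine kinase that signals through adaptor proteins to the PI3K, AKT and mTOR branch and to the RAS branch. IGF binding proteins hold the ligands outside the cell, where they can keep them from the receptor, carry them, or release them when a protease cuts the binding protein. In the testis IGF1 is made mainly by somatic cells, and IGF signalling promotes the growth of spermatogonia in culture.

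The libraries held 19015985 to 24110916 counts, and values below are CPM, read counts scaled to a common library size after TMM normalisation. The cells fitted their label: all 15 spermatogonial markers passed the low-count filter, and their summed CPM lay between 3928 and 4010. Ddx4, the germ cell RNA helicase gene, was at 376 to 422 CPM. Markers of feeder fibroblasts were present too, with all 20 tested and a summed CPM of 897 in Space-1 and 1024 to 1165 in the other 5 libraries. The libraries did not sort by group. After centring the log2 CPM of each gene, Ground-3 and Space-1 correlated at r = 0.47 across the 15104 genes, Ground-1 and Space-3 at 0.56, and Ground-2 and Space-2 at 0.10. The other 12 pairs had r between -0.64 and -0.08, where centring over 6 libraries itself pulls r below 0. No label marks these pairs, and no pair was a copy, since the counts of even the closest pair varied 1.55 times as much as sampling noise alone would give. Of these pairs, 1 shares a library number and the others do not. Results are also given below without Ground-3 and Space-1.

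Igfbp2 and Igfbp5 are neighbours on chromosome 1 of GRCm38. Igfbp2 runs from 72824503 to 72852474 on the plus strand and Igfbp5 from 72857932 to 72874884 on the minus strand, with their 3' ends facing each other across 5457 bp that hold no annotated gene. Igfbp6 lies on chromosome 15 (102144362 to 102149511, plus strand), Igf1r on chromosome 7 (67952827 to 68233668, plus strand) and Igfbp4 on chromosome 11 (99041244 to 99054392, plus strand). Their promoter sequences are shown because Igfbp2, Igfbp5, Igfbp6 and Igf1r were highest in the same 2 libraries and Igfbp4 was lowest in them. Each is the 250 bases before the RefSeq start on GRCm38.p6, 5' to 3' on the strand of the gene. For Igfbp2, which has more than 1 RefSeq start, the first is used (chr1:72824230-72824479). The others are chr1:72874866-72875115 for Igfbp5, chr15:102143936-102144185 for Igfbp6, chr7:67952007-67952256 for Igf1r and chr11:99040994-99041243 for Igfbp4. These are C57BL/6J reference letters, not DBA/2 letters. Capitals mark the GC box GGGCGG, the TATA box TATAAA and its variant TTTAAA on either strand.
Igfbp2: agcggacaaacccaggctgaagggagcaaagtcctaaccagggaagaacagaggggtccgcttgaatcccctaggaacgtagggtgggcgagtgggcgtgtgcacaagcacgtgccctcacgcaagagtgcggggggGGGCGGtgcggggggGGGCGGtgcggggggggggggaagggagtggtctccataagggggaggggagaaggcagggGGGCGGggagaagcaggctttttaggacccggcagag
Igfbp5: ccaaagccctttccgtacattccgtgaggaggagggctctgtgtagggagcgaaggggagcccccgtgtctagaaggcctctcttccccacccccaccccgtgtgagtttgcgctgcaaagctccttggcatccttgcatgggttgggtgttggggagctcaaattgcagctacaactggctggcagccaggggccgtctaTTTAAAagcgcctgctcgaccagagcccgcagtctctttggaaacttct
Igfbp6: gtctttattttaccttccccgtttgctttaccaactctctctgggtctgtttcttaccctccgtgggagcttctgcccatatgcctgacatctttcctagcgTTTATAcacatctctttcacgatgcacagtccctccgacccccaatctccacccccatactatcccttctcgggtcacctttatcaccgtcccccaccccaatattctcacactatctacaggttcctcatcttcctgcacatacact
Igf1r: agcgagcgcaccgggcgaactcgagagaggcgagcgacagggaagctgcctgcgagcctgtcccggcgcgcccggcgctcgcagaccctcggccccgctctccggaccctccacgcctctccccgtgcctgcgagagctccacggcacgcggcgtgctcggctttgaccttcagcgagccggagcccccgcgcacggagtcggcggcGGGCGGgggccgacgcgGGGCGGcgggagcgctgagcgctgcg
Igfbp4: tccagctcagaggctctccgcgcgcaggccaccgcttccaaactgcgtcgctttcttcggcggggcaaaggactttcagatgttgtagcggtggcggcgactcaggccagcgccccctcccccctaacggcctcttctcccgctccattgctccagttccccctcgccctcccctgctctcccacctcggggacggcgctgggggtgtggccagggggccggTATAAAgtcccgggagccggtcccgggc

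No capitalised element was common to all 5 windows. Igfbp2 held 3 GC boxes, at -113, -98 and -37 from the start (first base of each), and Igf1r held 2, at -43 and -26. A GC box on either strand was present in 32.7% of 32851 RefSeq promoter windows. Igfbp5 held TTTAAA at -49 to -44, a match found in 12.1% of windows. Igfbp4 held TATAAA at -28 to -23, and Igfbp6 held it on the opposite strand at -148 to -143, a match found in 12.4% of windows. The windows also differed in composition, with a GC content of 67.2% for Igfbp2, 77.6% for Igf1r, 69.2% for Igfbp4, 58.8% for Igfbp5 and 49.6% for Igfbp6. Positions are counted from the RefSeq start, which differs from the GENCODE start for all but Igfbp4, so they would shift if counted from the latter. The RefSeq start of Igfbp6 lies 176 bp before the GENCODE start of the gene. The gap is larger for Igf1r, whose window ends at 67952256 while the GENCODE gene starts at 67952827. For Igfbp5 the RefSeq start lies 19 bp inside the GENCODE gene. AP-1 sites (TGACTCA), E-boxes (CACGTG) and cAMP element sites (TGACG) were searched as well on both strands. In these 5 windows the only match was an E-box of Igfbp2 at -142 to -137, a match found in 6.02% of windows.

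To ask which binding protein transcripts were most abundant in these cultures, CPM was divided by the length of merged exons in kilobases, so that levels could be set side by side between genes. The libraries also held markers of feeder fibroblasts, and the part of feeder RNA in these levels was not tested. Igfbp2 was highest in every library, at 62.8 ± 10.9 CPM per kb (SD, n = 6). Igf1r followed at 14.2 ± 0.661 CPM per kb. The remaining binding protein genes were lower still, with Igfbp6 at 10.2 ± 3.30, Igfbp5 at 6.23 ± 1.74, Igfbp3 at 4.67 ± 0.807, Igfbp4 at 4.15 ± 0.482 and Igfbp7 at 2.54 ± 0.540 CPM per kb. Of the summed per-kb level of Igfbp2 to Igfbp7, Igfbp2 made up 69.3% ± 1.71 (SD, n = 6), and its share stayed between 67.4% and 71.8% while its own level varied 1.46-fold. Since Igfbp2 is most of that sum, its share would move less than its level even with the other genes constant. Igfbp6 made up 11.0% ± 1.76 and Igfbp7 2.87% ± 0.681. The ranges over all 6 libraries were separate at 2 steps of the order, Igfbp2 above Igf1r (4.41-fold) and Igfbp4 above Igfbp7 (1.64-fold). Between these, ranges overlapped, although Igf1r was above Igfbp6 and Igfbp6 above Igfbp5 within each of the 6 libraries. Igfbp5 was above Igfbp3 in 4 libraries and Igfbp3 above Igfbp4 in 5, so that the order of Igfbp5, Igfbp3 and Igfbp4 was not fixed.

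**Figure D1:**
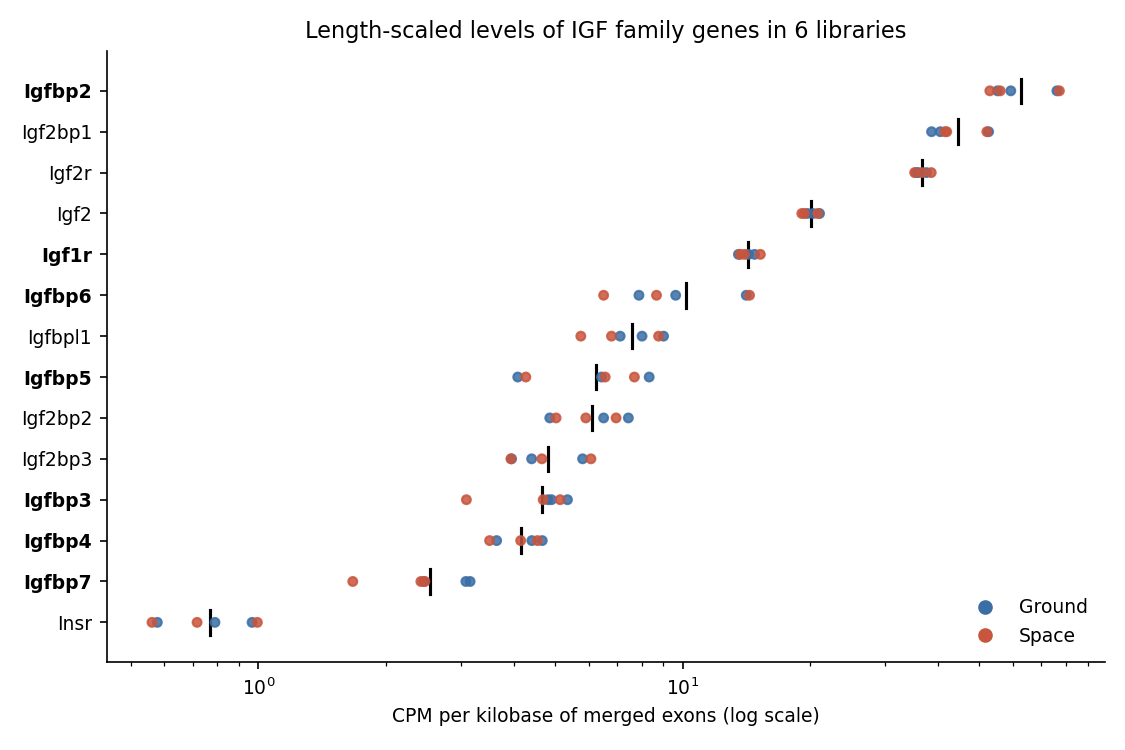
CPM per kilobase of merged exons (log scale) for IGF family genes, with 1 point per library (blue Ground, red Space), a black bar at the mean of 6 libraries and the genes described here in bold. Igfbp2 sits at 52.9 to 77.2, above Igf1r at 13.5 to 15.2, and Igfbp7 is lowest of the binding proteins at 1.67 to 3.15.

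The study asked whether storage in space changed gene expression. No gene of this family passed the test between Space and Ground GS cells: 0 of the 7 tested passed an adjusted p of 0.05 in edgeR's quasi-likelihood test, against 0% of all 15104 genes. At an unadjusted p under 0.05, edgeR, DESeq2 and limma-voom each gave 0 of the 7, where edgeR gave 0.609% of all genes. In none of the 7 did the 3 Space values all lie above or all below the 3 Ground values, which 3.59% of all genes showed. Log2 fold changes (Space minus Ground) ran from -0.41 to 0.01 with a median of -0.06, beside -0.0020 over all genes. Of the 7, 6 were below 0, where 51.3% of all genes were. In bulk RNA, fewer cells of a type and less RNA per cell cannot be told apart. The study describes 3 lines of GS cells, and the labels do not say which libraries shared a line or came from separate cultures, so p-values measure only the spread between these libraries. Each of the 3 pairs of similar libraries holds a Space and a Ground library, and the test had no term for these pairs. Spread between the pairs therefore counted as error, which raises p-values and widens intervals. A small difference between the groups could be missed.

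**Figure D2:**
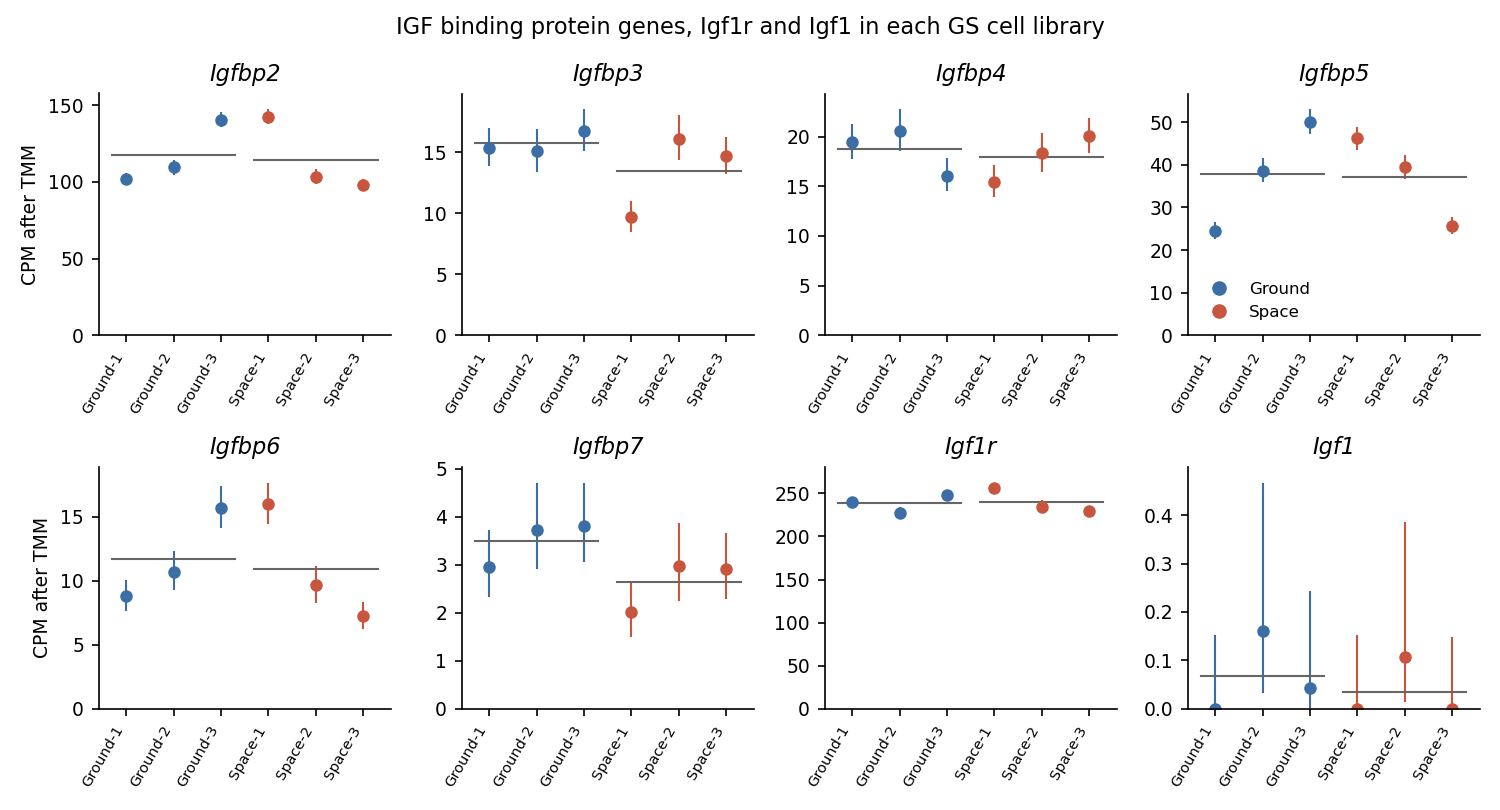
CPM after TMM scaling in each library (blue Ground, red Space), with exact Poisson 95% intervals as vertical lines and group means as grey lines. Igfbp2, Igfbp5 and Igfbp6 are highest in Ground-3 and Space-1, Igfbp3 and Igfbp7 are lowest in Space-1, and the groups overlap for every tested gene.

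Igfbp2, one of the main IGF carriers of fetal tissue, was at 101.9, 109.5 and 140.6 CPM in Ground-1, Ground-2 and Ground-3 and at 142.6, 103.4 and 97.7 CPM in Space-1, Space-2 and Space-3. Ground-3 and Space-1 stood above the other 4 libraries, and the groups overlapped almost entirely. The means were 117.4 ± 20.5 CPM in Ground and 114.6 ± 24.4 CPM in Space (SD, n = 3 each). The log2 fold change was -0.03 (SE 0.17, edgeR adjusted p = 0.9999). Its 95% interval spanned 0.746 to 1.28-fold.

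Igfbp5, a binding protein that also attaches to extracellular matrix, was at 24.5, 38.7 and 50.1 CPM in Ground and at 46.2, 39.4 and 25.6 CPM in Space, in library order. The values fell into 3 steps, each holding 1 Ground and 1 Space library, and the steps were the 3 pairs of libraries that resembled each other over all genes. Exact Poisson 95% intervals, which cover counting error only, overlapped within each pair and not between steps: 22.6 to 26.6 CPM in Ground-1, 35.9 to 41.6 CPM in Ground-2 and 47.2 to 53.1 CPM in Ground-3. The log2 fold change was -0.03 (SE 0.28, edgeR adjusted p = 0.9999). Its 95% interval spanned 0.622 to 1.55-fold, and the 3 Ground libraries alone covered a 2.04-fold range.

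Igfbp6, which prefers IGF2 over IGF1, was at 8.77, 10.7 and 15.7 CPM in Ground and at 16.0, 9.64 and 7.24 CPM in Space. It had the widest relative range of the family, 2.21-fold, and again Ground-3 and Space-1 were above the other 4 libraries. The Poisson intervals of Ground-3 (14.1 to 17.4 CPM) and Space-1 (14.4 to 17.6 CPM) lay above those of every other library. On the log2 scale the difference was -0.10 (SE 0.32, edgeR adjusted p = 0.9999), with a 95% interval of 0.559 to 1.56-fold.

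Igfbp4, usually described as an inhibitor of IGF action, had the opposite order. It was at 19.5, 20.6 and 16.1 CPM in Ground and at 15.5, 18.3 and 20.1 CPM in Space, lowest in Ground-3 and Space-1. The range was narrow, 1.33-fold, and Poisson intervals of neighbouring libraries overlapped. The log2 fold change was -0.06 (SE 0.14, edgeR adjusted p = 0.9999), with a 95% interval of 0.768 to 1.20-fold.

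Igfbp3, the main carrier of IGF in adult serum, was at 15.4, 15.1 and 16.7 CPM in Ground and at 9.68, 16.1 and 14.7 CPM in Space. A single library stood apart: Space-1, with a Poisson interval of 8.48 to 11.0 CPM, while the lowest lower bound among the other 5 was 13.2 CPM. Ground-3, its closest library over all genes, had the highest value. The means were 15.7 ± 0.898 CPM in Ground and 13.5 ± 3.37 CPM in Space (SD, n = 3 each). The log2 fold change was -0.22 (SE 0.19, edgeR adjusted p = 0.9999). Without Space-1 it was -0.03, and without both Ground-3 and Space-1 it was 0.02.

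Igfbp7, which binds IGFs only weakly and is best known as a secreted matrix protein, was at 2.96, 3.73 and 3.81 CPM in Ground and at 2.02, 2.98 and 2.92 CPM in Space. Space-1 was again the lowest library, on 49 reads. The other Space libraries lay next to Ground-1, and their Poisson intervals overlapped those of all 3 Ground libraries. The means were 3.50 ± 0.468 and 2.64 ± 0.540 CPM (SD, n = 3 each). This was the largest difference of the family tested, -0.41 on the log2 scale (SE 0.23, edgeR adjusted p = 0.9999), with a 95% interval of 0.517 to 1.10-fold. Its exons share 85 bp with Polr2b on the other strand, and whether counting used strand is not given in the sources used here, so reads in that stretch cannot be assigned.

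Igf1r, whose product is the receptor that carries the growth signal of both IGFs, was at 239.9, 227.1 and 248.0 CPM in Ground and at 255.9, 234.8 and 229.4 CPM in Space. All 6 libraries lay within a 1.13-fold range, and the SD of its log2 CPM stood at percentile 15.2 of all genes tested, against 55.1 to 87.6 for the 6 binding protein genes. Igf1r also had the most reads of the family, 4266 to 6213 per library, against 49 to 87 for Igfbp7. Counting noise raises the SD of genes with few reads, and the percentiles are not adjusted for it. The means of Igf1r were 238.3 ± 10.5 CPM in Ground and 240.0 ± 14.0 CPM in Space (SD, n = 3 each). On the log2 scale the difference was 0.01 (SE 0.06, edgeR adjusted p = 0.9999), with a 95% interval of 0.908 to 1.12-fold.

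Igf1 had 0, 3 and 1 reads in Ground and 0, 2 and 0 reads in Space. A count of 3 is about the 1-sided 95% Poisson limit for a count of 0. A count of 3 equals 0.120 to 0.160 CPM in these libraries, and no library was above it. The 2-sided 95% Poisson intervals of the libraries with 0 reads reach 0.148 to 0.152 CPM. No fold change is given. Igf2, the other ligand gene, was at 116.3 ± 3.83 CPM in Ground and 113.0 ± 5.35 CPM in Space (SD, n = 3 each), a difference of -0.04 on the log2 scale (SE 0.06, edgeR adjusted p = 0.9999). The insulin genes had 1 read of Ins2 and none of Ins1 in all 6 libraries.

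Igfbp1 lies 3539 bp from Igfbp3 on chromosome 11, with 3' ends facing, and had 0 reads in all 6 libraries, while Igfbp3 had 235 to 382. Igfals, which encodes the third protein of the serum IGF complex, had 1 to 7 reads and was not tested. Igfbpl1, a related gene, was at 26.2 ± 3.07 CPM in Ground and 23.1 ± 4.98 CPM in Space, a difference of -0.18 on the log2 scale (SE 0.16, edgeR adjusted p = 0.9999), and was lowest in Space-1 (18.7 CPM).

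The same library order recurred along the family. Ground-3 and Space-1 were above the other 4 libraries for Igfbp2, Igfbp5, Igfbp6 and Igf1r, below them for Igfbp4, and neither for Igfbp3 and Igfbp7. Because these 2 libraries were singled out by their values, the counts are a description: 4 of the 7 above and 1 below, beside 23.5% above and 23.5% below among all genes tested. Mean CPM in the pair relative to the other 4 was 1.74-fold for Igfbp6, 1.37-fold for Igfbp2, 1.08-fold for Igf1r and 0.805-fold for Igfbp4, and for Igfbp5 the means were 48.1 against 32.1 CPM. Over the 6 libraries, log2 CPM of Igfbp2 and Igfbp6 correlated at r = 0.98, of Igfbp5 and Igfbp6 at 0.89 and of Igfbp2 and Igfbp5 at 0.83. Igfbp4 ran opposite to Igfbp2 (r = -0.90) and to Igf1r (r = -0.94). These r values rest on 6 points that share library and depth. The other receptor genes had the same order, Insr (13.5 against 9.10 CPM) and, by a small margin, Igf2r (1.06-fold). Among germ cell markers, Etv5 and Gfra1, a target and a receptor component of GDNF signalling, were lower in the pair, at 96.1 against 229.3 CPM and 100.8 against 144.7 CPM. Nanos2, a gene of undifferentiated spermatogonia, was higher, at 11.8 against 5.48 CPM. Of the 15 markers, 4 were above in the pair (Nanos2, Dazl, Sall4 and Mael) and 4 below (Etv5, Gfra1, Ddx4 and Utf1). The rest overlapped, and the share of 26.7% in each direction was near the 23.5% of all genes tested. Ret, the other GDNF receptor gene among the 15, was at 402.3 against 427.1 CPM with overlapping values. GDNF signalling itself was not tested.

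Igfbp3 and Igfbp7 had a second pattern (r = 0.88 over 6 libraries). Space-1 was the lowest library for Igfbp3, Igfbp7 and Igfbp4. It was also the lowest for 17 of the 20 fibroblast markers and for their sum, against 20.4% of all genes tested. Sparc, a matrix protein gene of fibroblasts, was at 24.5 CPM in Space-1 and 42.3 to 51.6 CPM elsewhere, and Vim at 33.3 CPM in Space-1 and 98.3 CPM in Ground-3. None of the 20 markers was at 0 in all libraries. Their median log2 fold change was -0.29, with 0 of 20 passing the adjusted p of edgeR and 3 with a lower Space level when p under 0.05 was left unadjusted, beside 0.45% of all genes. Summed spermatogonial markers were at 3972 CPM in Space-1 and 3928 to 4010 CPM in the other 5 libraries. The fibroblast sum was highest in Space-2 (1165 CPM), whereas Igfbp3 and Igfbp7 were highest in Ground-3. Fn1 (376 to 465 CPM) and Col5a1 (231 to 307 CPM) were the largest parts of this sum. Of the 20 markers, Vim, Prrx1 and Twist1 were also highest in Ground-3, and the rest were highest in other libraries. The part of fibroblast RNA in the values of Igfbp3 and Igfbp7 was not tested. Markers of other testis cells were low, with summed CPM of 24.7 to 28.7 for Sertoli cells (Fshr at 0), 4.16 to 5.04 for Leydig cells (Hsd3b1 and Lhcgr at 0), 6.05 to 14.0 for peritubular myoid cells, 14.1 to 22.6 for macrophages (C1qa, C1qb and C1qc at 0) and 15.3 to 26.2 for endothelial cells. Space-1 was the lowest library for the Leydig, peritubular myoid and endothelial sums too, and Ground-3 was the lowest for the Sertoli and macrophage sums. Of the Leydig genes only Star passed the low-count filter.

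**Figure D3:**
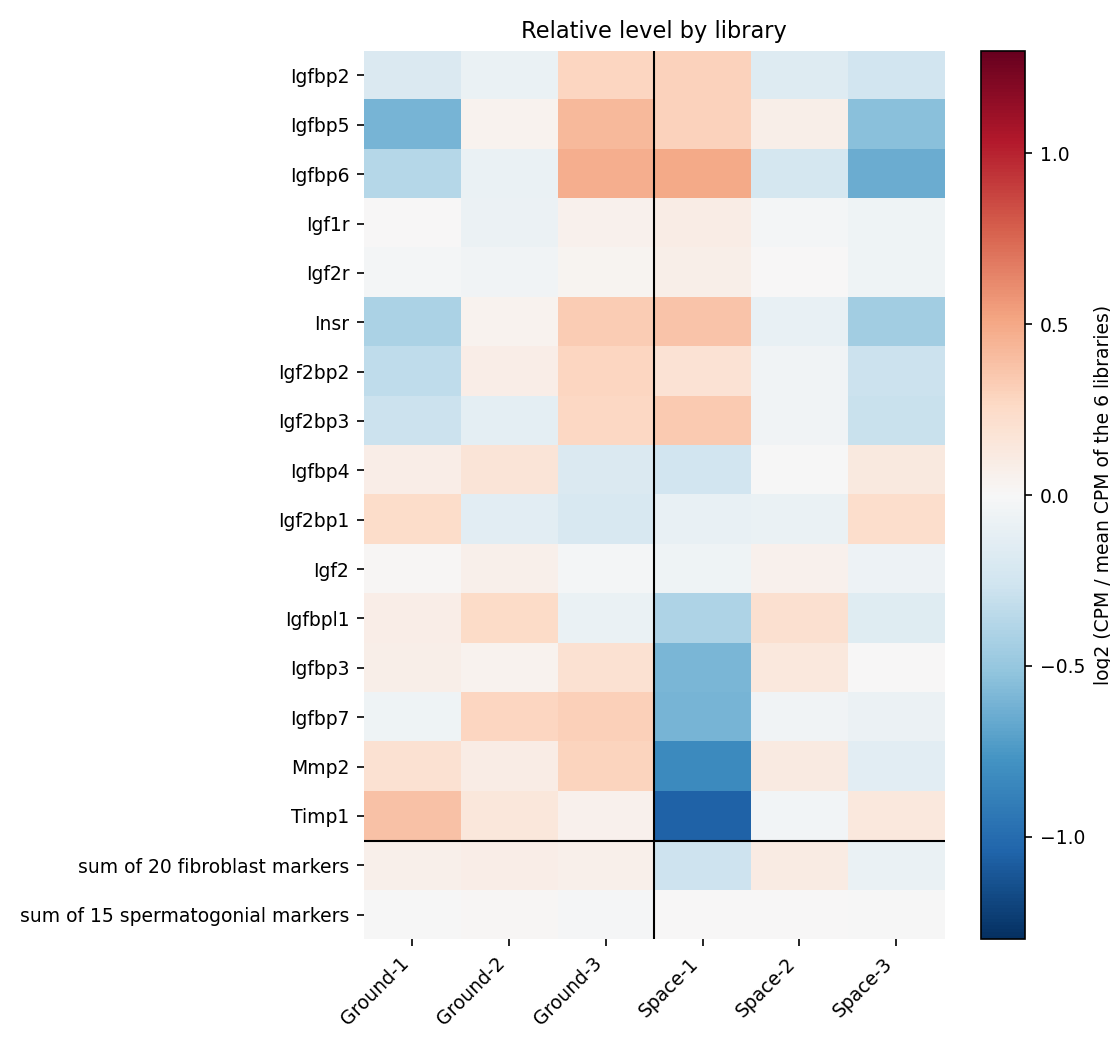
Colour gives log2 of the CPM in a library over the mean CPM of the 6 libraries, with the groups split by the vertical line and summed markers under the horizontal line. Igfbp2, Igfbp5, Igfbp6 and Insr are red in Ground-3 and Space-1, whereas Igfbp3, Igfbp7, Mmp2, Timp1 and the fibroblast markers are bluest in Space-1.

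For each gene, the 3 genes with the most similar pattern were sought among 10852 genes with a mean of at least 5 CPM. With 6 libraries and so many genes, high r values are readily found, and they carry no test. Igfbp5 was followed most closely by Rtcb (r = 0.9998 over 6 libraries), Hoxc13 and Tbc1d30, and Hoxc13 had the same 3 steps, from 3.25 and 3.48 CPM in Ground-1 and Space-3 to 10.7 and 8.77 CPM in Ground-3 and Space-1. Igfbp2 was closest to Lman1, Bag6 and Ccni and Igfbp6 to Gxylt1, Lclat1 and Pole3. Rapsn and Aldh1a2 were among the genes closest to Igfbp4. Igfbp3 was closest to Zmpste24, Ifnar2 and Fcsk, which varied far less than it did: Zmpste24 was at 21.9 CPM in Space-1 and 24.1 to 24.8 CPM elsewhere. Igfbp7 was closest to Serpinb6a, Rps19bp1 and Rhof, and Igf1r to Hspa4l, Ppp1r9a and Slf1. Over these 20 genes r ran from 0.977 to 0.9998.

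Among the other genes of the pathway, 48 were listed and 43 tested. None passed an adjusted p of 0.05 in edgeR, and none had an unadjusted p under 0.05 in edgeR, DESeq2 or limma-voom. Log2 fold changes were above 0 for 24 and below 0 for 19, with a median of 0.0077. In 1 of the 43 the groups did not overlap, beside 3.59% of all genes and 1.98% with Space below Ground. It was Pappa, which encodes a protease that cuts IGFBP4. Pappa was at 0.700, 0.745 and 0.833 CPM in Ground and at 0.494, 0.639 and 0.440 CPM in Space, on 11 to 19 reads per library. Its log2 fold change was -0.54 (SE 0.32, edgeR adjusted p = 0.9999).

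Proteases that cut binding proteins and the inhibitors of such proteases were the group with the lowest median, -0.26 over 8 tested of 9 listed, 6 of them below 0. Ctsd, the lysosomal protease cathepsin D and the most abundant of the group, was at 426.8 ± 14.9 CPM in Ground and 417.3 ± 21.1 CPM in Space (SD, n = 3 each). Timp1, an inhibitor of matrix metalloproteinases, was at 31.9, 27.1 and 25.4 CPM in Ground and at 11.8, 23.9 and 27.0 CPM in Space. Adam12, a protease that cuts IGFBP3 and IGFBP5, was at 8.65, 10.3 and 11.6 CPM in Ground and at 12.4, 11.2 and 8.96 CPM in Space, a log2 difference of 0.09 (SE 0.17). Mmp2, a matrix metalloproteinase that can cut binding proteins, was at 12.0, 11.2 and 12.8 CPM in Ground and at 5.89, 11.3 and 9.52 CPM in Space. In Timp1 and Mmp2 Space-1 was the lowest library, as in Igfbp3 and Igfbp7. The log2 fold change was -0.43 for Timp1 (SE 0.27) and -0.43 for Mmp2 (SE 0.23), and neither passed (edgeR adjusted p = 0.9999).

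Among signalling genes downstream of the receptor, all 20 genes of the PI3K, AKT and mTOR branch were tested, and their log2 fold changes lay between -0.05 and 0.07. Mtor, the growth-controlling kinase, was at 381.5 ± 33.4 CPM in Ground and 394.2 ± 11.6 CPM in Space, and Foxo1, a transcription factor that AKT keeps out of the nucleus, at 224.6 ± 20.8 and 233.8 ± 28.3 CPM (SD, n = 3 each). The 8 adaptor genes had a median log2 fold change of 0.02 and ranged from -0.62 for Grb14 to 0.27 for Irs1, both under 3 CPM in every library. Shc1, the most abundant of them, was at 119.0 ± 5.11 and 121.5 ± 8.97 CPM. Of the receptors, Igf2r, which removes IGF2 from the cell surface, was at 337.8 ± 10.1 CPM in Ground and 342.4 ± 15.5 CPM in Space, a log2 fold change of 0.02 (SE 0.06), and Insr, the insulin receptor gene, was at 10.7 ± 2.67 and 10.4 ± 3.02 CPM. Igf2bp1, Igf2bp2 and Igf2bp3 encode RNA binding proteins of Igf2 mRNA and are not IGF carriers. Igf2bp1 was the most abundant of them, at 424.8 ± 73.6 CPM in Ground and 437.2 ± 58.0 CPM in Space, and ran highest in Ground-1 and Space-3 (509.1 and 504.2 CPM).

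**Figure D4:**
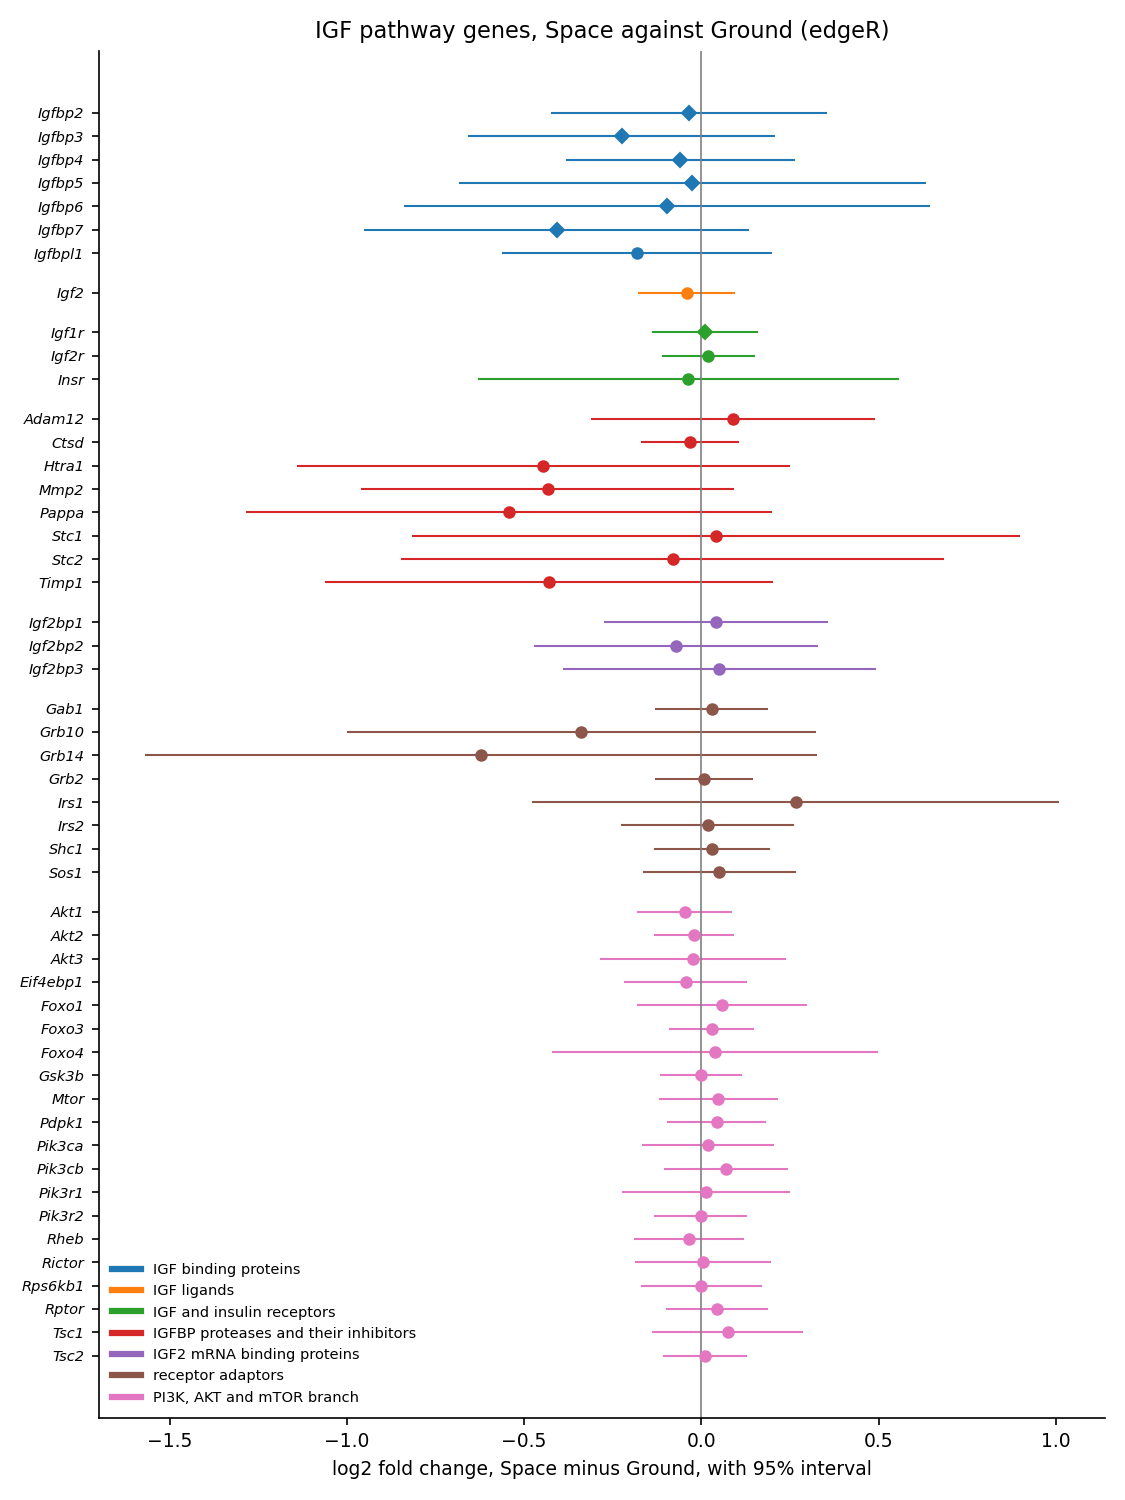
Log2 fold change of each tested gene, Space minus Ground, from edgeR with 95% intervals, grouped by role in colour, with diamonds for the genes described here and circles for other pathway genes. Every interval includes 0, and the 20 genes of the PI3K, AKT and mTOR branch lie within -0.05 to 0.07.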

How the data were processed

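Poly(A) RNA of 6 GS cell libraries, 3 Space and 3 Ground, was sequenced. The authors deposited raw counts per gene, whole numbers with nothing pooled or normalised. The submitters' processing notes name bcl2fastq 2.20, cutadapt 4.1, HISAT2 2.2.1, HTSeq 2.0.2 and mm10, and the methods name GENCODE M21. Whether HTSeq counted by strand is not given in the sources used here, and labels and methods name different read layouts. Reads shared between overlapping genes therefore limit genes such as Igfbp7. Of the gene IDs, 32235 were in GENCODE M21 (GRCm38), which gave positions and exon lengths. Promoter windows came from RefSeq.

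The test was run in edgeR 4.0.16 (R 4.3.3), using filterByExpr, TMM scaling and the 2-sided quasi-likelihood F test with group as the only term and Benjamini-Hochberg adjustment over 15104 genes, called at 0.05. SE is the size of the log2 fold change over the square root of F, and intervals are 95%. The biological coefficient of variation was 13.9%. Log2 CPM used a prior count of 2. The scripts were tested on simulated data. Alternatives were other scalings and filters, DESeq2 1.42.0, limma-voom (limma 3.58.1), a replicate block, an adjusted p of 0.1, leaving out each library, and, chosen after seeing the data, leaving out Ground-3 and Space-1 together. Genes named are the family, up to 4 pathway genes per group of highest mean CPM and, for each family gene, the 3 genes most like it, of which 1 is not reported here. Pappa, Grb14, Irs1, and the markers and pathway genes given for their library order, were named after their values were seen. The family, the pathway lists and the marker lists were chosen with earlier results of these data known.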

Additional observations from a re-analysis of the deposited data

How the results depend on the processing

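No family, pathway or other gene passed an adjusted p of 0.05 under any of 14 alternatives (edgeR, DESeq2 and limma-voom), in which 45 (DESeq2) to 192 genes and none of the family had an unadjusted p under 0.05. The lowest adjusted p was 0.9997. Without adjustment, 2 of the 48 listed pathway genes had p under 0.05 in edgeR without Space-2, beside 122 of all 15476 genes tested. Without Space-3 it was 1 of the 48, beside 101 of all 15330 genes tested. The replicate block gave 0 genes (63 at an unadjusted p under 0.05). Same-numbered libraries did not deviate together (mean r = -0.27), and 2 of 6 libraries correlated best with their own number, so the numbers are not treated as pairs. Leaving out 1 library moved the median log2 fold change of the family between -0.24 (without Ground-1) and 0.045 (without Ground-3). It was -0.22 without Space-1 and 0.042 without Space-3. Its sign therefore rested on single libraries. Without 1 library, 0 to 2 family genes had groups that did not overlap (Igfbp7 without Ground-1, Igfbp3 and Igfbp7 without Space-2). With total counts as library size there was 1 (Igfbp7). The share over all genes was not computed for these settings. With 1 library fewer, groups separate more readily, so these counts are not read as a result about Igfbp3 or Igfbp7. Total counts shifted the median of all genes to 0.03 and turned the log2 fold changes of Igfbp2 (0.0018) and Igfbp5 (0.014). Without Ground-3 and Space-1, those of Igfbp3 (0.017), Igfbp5 (0.045) and Igf1r (-0.0068) turned. Over the libraries left out in turn, the log2 fold change ran from -0.22 to 0.12 for Igfbp2, -0.37 to -0.03 for Igfbp3, -0.15 to 0.038 for Igfbp4, -0.26 to 0.24 for Igfbp5, -0.48 to 0.18 for Igfbp6, -0.52 to -0.24 for Igfbp7 and -0.039 to 0.045 for Igf1r. Igfbp3 and Igfbp7 stayed below 0 in these.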
